A study of Mus musculus with 20 samples.

Results

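The genes described here are 35 lysosomal hydrolases and membrane proteins, a set that leaves out the cathepsins, and their mRNA levels were followed in mouse kidney tumors and in normal kidney. They were found by gene name in the gene counts of the series, which lists 54532 genes, and each of the 35 was present. They comprise 8 glycosidases, 6 enzymes that degrade glycosaminoglycans, 8 lipid hydrolases and lipid carriers, a group of 3 made up of a peptidase, a phosphatase and the granulin precursor, 6 membrane proteins and 4 genes of the vacuolar proton pump.

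Bulk RNA sequencing of polyadenylated RNA was done on 10 tumors and 10 pieces of normal kidney. The tumors arose in adult C57BL/6 mice of both sexes that were LSL-Cas9/+ and Pax8 Cre/+, after adeno-associated virus (AAV) without Cre, carrying guide RNAs against Vhl, Pbrm1, Keap1 and Tsc1, had been injected into the kidney. Pax8 Cre switches Cas9 on in cells that express Pax8, among them those of the renal tubules. The normal kidneys were regions of the kidneys of the same mice, and thus carried the same alleles and came from animals that had received the same virus. The labels number the libraries 1 to 10 in each group and do not say that a number stands for a mouse.

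Lysosomes are acid compartments in which proteins, glycans, glycosaminoglycans and lipids are taken apart by hydrolases, most of which are tagged with mannose 6-phosphate in the Golgi and carried there by receptors. Heavily glycosylated membrane proteins line the lysosome, carriers and channels let products and ions out, and a proton pump, the V-ATPase, keeps the lumen acid. Cells of the proximal tubule of the kidney are rich in lysosomes because they take up filtered protein, and many lysosomal genes carry in their promoters an E-box sequence that is bound by the transcription factors TFEB, TFE3 and MITF.

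The start regions of some of these genes are shown first, with their matches to that E-box. Reference promoters (RefSeq, GRCm38.p6, from 250 bases before to 50 bases after the start site) were found for 32 of the 35 genes, and were searched on both strands for TCACGTG, for its 8-base palindrome TCACGTGA, which contains it, and for the bare E-box CACGTG, which lies within both. In the sequences below, written 5′ to 3′ on the strand of the gene, capitals mark each match to TCACGTG on either strand.
Glb1: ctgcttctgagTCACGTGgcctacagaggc
Gla, upstream site: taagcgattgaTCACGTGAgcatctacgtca
Gla, downstream site: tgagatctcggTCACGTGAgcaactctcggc
Naglu: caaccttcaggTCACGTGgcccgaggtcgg
Lamp1: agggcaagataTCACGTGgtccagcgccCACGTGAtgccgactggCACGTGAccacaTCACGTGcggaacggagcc
Mcoln1: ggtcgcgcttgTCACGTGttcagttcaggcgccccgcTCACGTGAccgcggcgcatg
Atp6v1a: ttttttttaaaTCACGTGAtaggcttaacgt

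The Glb1 stretch lies at chr9:114401018-114401047 (plus strand), with its match starting at base -49 from the start site. Those of Gla lie at chrX:134601214-134601244 and chrX:134601181-134601211 (minus strand), that of Naglu at chr11:101070009-101070038 (plus strand) and that of Atp6v1a at chr16:44139372-44139402 (minus strand). The Lamp1 stretch, at chr8:13159088-13159163 (plus strand), holds 4 separate matches, the first starting at base -62 and the last at base -16. The Mcoln1 stretch, at chr8:3500436-3500492 (plus strand), holds 2.

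TCACGTG was present in the promoters of 10 of the 32 genes (31.2%), namely Gaa, Gla, Glb1, Naglu, Sgsh, Arsa, Lamp1, Mcoln1, Cln3 and Atp6v1a. Over 27025 genes with a promoter in the same reference the share was 4.29%, and over the 11190 of them that passed the filter on low counts it was 6.78%. The 8-base palindrome was found in 4 of the 32 (12.5%) against 1.12% of the 27025 and 2.04% of the 11190 genes. CACGTG was found in 10 (31.2%) against 8.09% and 11.4%, and the 10-base palindrome in 1 (3.12%), Cln3, against 0.37% and 0.742%. The matches in Gaa, Sgsh, Arsa and Cln3 are not printed above. The 10 genes with TCACGTG had a median log2 fold change, tumor minus normal kidney, of 0.97, with values from 0.23 for Atp6v1a to 3.02 for Glb1. The 22 genes without it had a median of 1.07, and Hexa, with the highest fold change of the set, was among them. The sequence was searched because many lysosomal promoters are known to carry it, so its higher share here is not an independent result. A match to these letters is a description of the reference sequence and not a bound site.

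The libraries held between 14737516 and 26679704 counts in normal kidneys and between 18447394 and 24902973 in tumors, and each of the 35 genes passed the filter on low counts. Of the targeted genes, Vhl (log2 fold change -0.49, adjusted p = 0.00179) and Tsc1 (-0.61, adjusted p = 0.00871) were lower in tumors, Keap1 was higher (0.83, adjusted p = 1.3e-07) and Pbrm1 (-0.28) did not pass the test. RNA level does not measure editing. The summed level of Car9 and Egln3, targets of HIF, was 494 to 876 CPM in tumors and 19.1 to 64.6 CPM in normal kidneys. CPM stands for the counts of a gene over the scaled library total, times 1e+06. The paper names both Vhl loss and tumor hypoxia for a rise of such targets, and the part of each was not tested. The normal kidneys held markers of each segment of the nephron that was listed. In tumors the summed markers of the loop of Henle (0.0431 to 5.46 CPM, against 3580 to 8750) and of principal cells (0.0431 to 25.1 CPM, against 137 to 1060) were near 0. The summed markers of the proximal tubule had a median of 5060 CPM in tumors (1000 to 8710) and of 7820 CPM in normal kidneys (1280 to 10500). Of those 8 markers 3 fell (log2 fold change -3.74 for Slc22a8, -3.54 for Slc5a2 and -2.62 for Aqp1) and 0 rose, with a median log2 fold change of -0.80.

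Most of the lysosomal genes were higher in tumors and none was called lower. In edgeR's quasi-likelihood test, with p-values adjusted over the 15354 genes tested, 30 of the 35 rose and 0 fell at an adjusted p under 0.05, whereas 23.6% of all genes tested rose and 23.8% fell. At an unadjusted p under 0.05, and by DESeq2, 0 of the 35 fell as well. The 5 not called were Ids, Smpd1, Atp6v1h, Atp6v1a and Atp6v1d. The median log2 fold change of the 35 was 1.02, against -0.02 over all genes tested. With library totals in place of TMM factors, the median of all genes moved to -0.14 and the shares called higher and lower became 18.6% and 29.7%, and then 27 of the 35 rose, 0 fell, and their median was 0.89. In 15 of the 35 every tumor lay above every normal kidney, a pattern that 5.87% of all genes tested showed, and in 0 of the 35 did every tumor lie below, which 4.74% of all genes showed. By stricter limits, a log2 fold change above 1 with an unadjusted p under 0.001, 20 of the 35 were called higher and 0 lower, against 8.85% and 10.2% of all genes. As a share of the counts of a library, the 35 genes took 0.556 to 0.72% in normal kidneys (median 0.668%) and 1.04 to 1.59% in tumors (median 1.5%). In bulk tissue, more cells of a type that expresses a gene and more RNA of that gene per cell cannot be told apart.

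**Figure D1:**
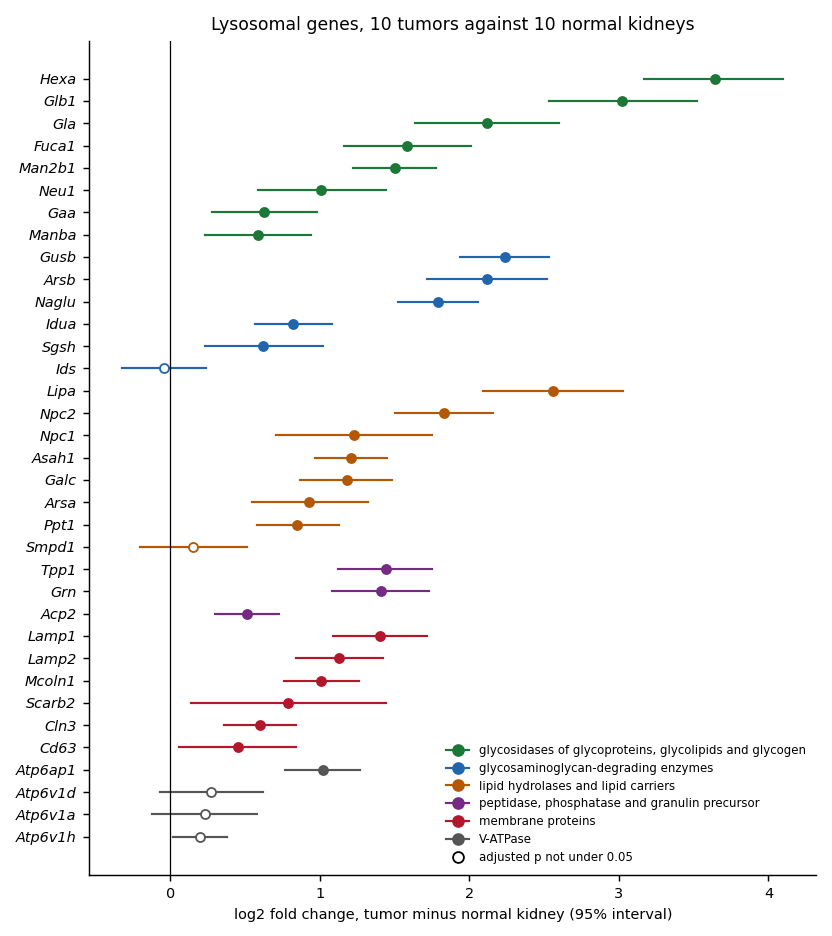
Log2 fold change of each gene, tumor minus normal kidney (horizontal axis), with its 95% interval, for 10 tumors and 10 normal kidneys. Genes are grouped and colored by role, and open circles mark the 5 genes not called, which lie between -0.04 and 0.27, while Hexa and Glb1 lie farthest to the right at 3.64 and 3.02.

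The glycosidases, which remove sugars one by one from glycoproteins, glycolipids and glycogen, showed the highest median of the role groups. The 8 genes rose, with a median log2 fold change of 1.54, and in 4 of them (Hexa, Glb1, Gla and Man2b1) the groups did not overlap. Hexa, which encodes the alpha subunit of beta-hexosaminidase and lies at chr9:59539540-59565109 (mm10, plus strand), stood at 30.2 CPM in the lowest normal kidney, 60.9 CPM at the median and 99.2 CPM in the highest, and at 341, 814 and 1070 CPM in tumors. The lowest tumor was number 7, and the other 9 tumors lay between 693 and 1070 CPM. The log2 fold change was 3.64 (SE 0.219, 12.4-fold, adjusted p = 4.5e-11).

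Glb1 (chr9:114401076-114474898, plus strand), the beta-galactosidase that acts on gangliosides and keratan sulfate and whose activity is widely used as a stain for senescent cells, lay at 44.9, 92.7 and 159 CPM (lowest, median, highest) in normal kidneys and at 328, 740 and 1130 CPM in tumors. Again tumor 7 was the lowest tumor, and the groups were separate. The log2 fold change of Glb1 was 3.02 (SE 0.236, 8.14-fold, adjusted p = 1.38e-09). Tmppe, on the same strand, overlaps Glb1 and had 7.51% of its counts, with a log2 fold change of 2.06. The smallest change in the group was that of Manba, the beta-mannosidase, at 46.1, 95.5 and 128 CPM in normal kidneys and 74.2, 142 and 170 CPM in tumors. Only 7 of the 10 tumors lay above the highest normal kidney for Manba, and the log2 fold change was 0.59 (SE 0.171, adjusted p = 0.00756). With library totals in place of TMM factors the Manba call was lost (0.44, adjusted p = 0.0682).

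Between these lay Gla, the alpha-galactosidase that is deficient in Fabry disease (log2 fold change 2.12), Fuca1, an alpha-fucosidase (1.58), Man2b1, an alpha-mannosidase (1.5), Neu1, a sialidase (1.01), and Gaa, the acid alpha-glucosidase that degrades glycogen (0.63). For Gla, the 10 normal kidneys ran from 5.03 to 22.7 CPM and the 10 tumors from 34.5 to 67.1 CPM. Fuca1 separated the groups except for normal kidney 9, which at 539 CPM lay above tumor 7 at 380 CPM.

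**Figure D2:**
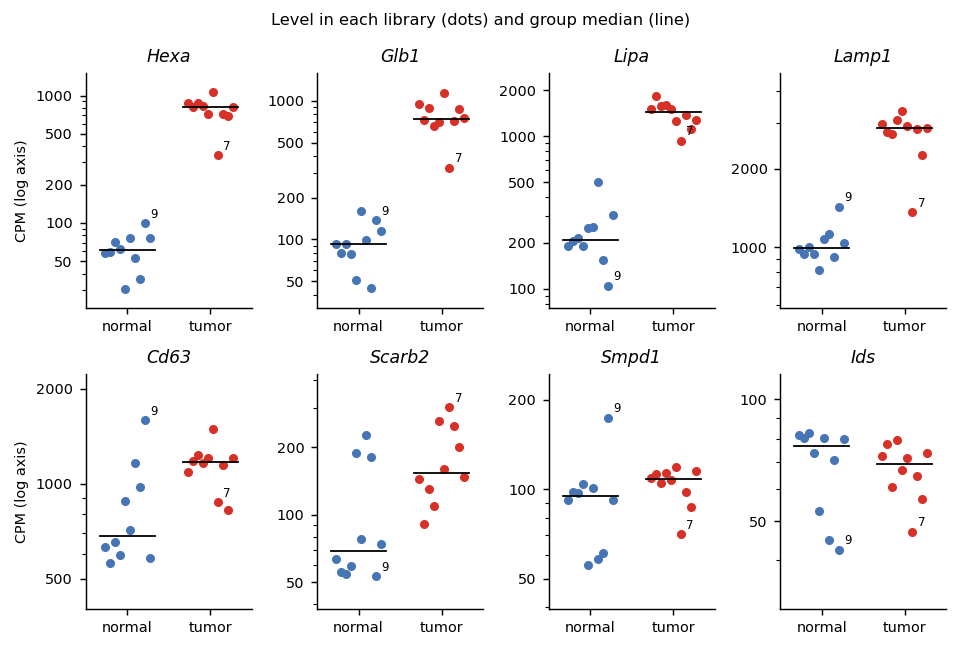
CPM on a log axis in each of the 10 normal kidneys (blue) and 10 tumors (red) for 8 of the genes, with the median of each group as a line; normal kidney 9 and tumor 7 are numbered. Hexa, Glb1 and Lipa show no overlap of the groups, Lamp1 overlaps only through tumor 7 and normal kidney 9, and the groups overlap for Cd63, Scarb2, Smpd1 and Ids.

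Of the enzymes that degrade glycosaminoglycans, the sulfated polysaccharides of the matrix and cell surface, 5 of 6 rose, with a median log2 fold change of 1.31. In 4 of the 6 (Gusb, Arsb, Naglu and Idua) every tumor exceeded every normal kidney. Gusb (chr5:129989011-130003049, minus strand), the beta-glucuronidase, lay at 21.8, 28.6 and 54 CPM in normal kidneys and at 121, 145 and 170 CPM in tumors. The highest normal kidney was number 7, and the other 9 were at or below 35.4 CPM. Its log2 fold change was 2.24 (SE 0.142, 4.71-fold, adjusted p = 8.02e-11). Arsb, the sulfatase that acts on dermatan sulfate, lay at 46, 70.9 and 99.5 CPM in normal kidneys and at 147, 314 and 496 CPM in tumors, without overlap, and its log2 fold change was 2.12 (SE 0.189, adjusted p = 9.71e-09).

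Naglu, a glucosaminidase of heparan sulfate, had a log2 fold change of 1.79, Idua, the iduronidase, of 0.82, and Sgsh, which takes sulfate off heparan sulfate, of 0.62. The Sgsh call was lost with library totals (0.47, adjusted p = 0.0818). Ids, the iduronate sulfatase, acts on the same chains as Idua but differed from the rest of the group. It lay at 42.5, 76.8 and 82.5 CPM in normal kidneys and at 47.1, 69.2 and 79.6 CPM in tumors. Each tumor fell between the lowest and the highest normal kidney, and the log2 fold change was -0.04 (SE 0.135, 95% interval -0.32 to 0.24, adjusted p = 0.83). Idua, with a median of 11.2 CPM in normal kidneys, and Sgsh, with 14.8 CPM, overlap genes on the opposite strand that had more counts than they did. The counts of Slc26a1 were 677% and those of Dgkq 242% of those of Idua, and the counts of Card14 were 127% of those of Sgsh. Since the sources do not say whether the counting used strand, reads in those overlaps cannot be told apart. Dgkq (log2 fold change 1.49) and Card14 (2.69) were themselves higher in tumors, and Slc26a1 (0.48, adjusted p = 0.306) was not called.

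Among the lipid hydrolases and lipid carriers, 7 of 8 rose, with a median log2 fold change of 1.19, and 4 of the 8 (Lipa, Npc2, Asah1 and Galc) showed no overlap of the groups. Lipa (chr19:34492318-34527474, minus strand), the acid lipase that frees cholesterol and fatty acids from cholesteryl esters and triglycerides, lay at 105, 210 and 505 CPM in normal kidneys and at 937, 1440 and 1850 CPM in tumors. Normal kidney 7 was the highest of its group for Lipa, and the next was kidney 10 at 306 CPM. The log2 fold change was 2.56 (SE 0.222, 5.90-fold, adjusted p = 6.33e-09).

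Npc2, the soluble carrier that hands the freed cholesterol on inside the lysosome, lay at 101, 120 and 248 CPM in normal kidneys and at 356, 489 and 609 CPM in tumors. Normal kidney 9 was the highest, at 248 CPM, and the other 9 did not exceed 156 CPM. Its log2 fold change was 1.83 (SE 0.159, adjusted p = 6.2e-09). Npc1, the membrane protein that receives cholesterol from Npc2, had a log2 fold change of 1.23 (SE 0.247, adjusted p = 3.25e-04). Asah1, the acid ceramidase, rose by 1.21, Galc, the galactosylceramidase, by 1.18, Arsa, the sulfatase of sulfatide, by 0.93, and Ppt1, a thioesterase that takes fatty acids off proteins, by 0.85 on the log2 scale. Ppt1 and Npc1 share span with genes on the opposite strand, with Cap1 at 181% of the counts of Ppt1 (Cap1 log2 fold change 0.80) and Rmc1 at 41.5% of those of Npc1 (Rmc1 0.79).

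Smpd1, the acid sphingomyelinase that makes the ceramide on which Asah1 acts, was not called. It lay at 55.4, 94.5 and 174 CPM in normal kidneys and at 70.6, 108 and 119 CPM in tumors. The tumors fell inside the range of the normal kidneys, which was set by kidney 9 at the top and by kidneys 5, 7 and 8 (55.4, 58.3 and 60.9 CPM) at the bottom. The log2 fold change was 0.15 (SE 0.169, 95% interval -0.20 to 0.51, adjusted p = 0.474). It became 0.33 (adjusted p = 0.0324) with tumor 7 and normal kidney 9 both left out, and -0.06 (adjusted p = 0.739) with normal kidneys 5, 7 and 8 left out.

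The peptidase Tpp1, the granulin precursor Grn and the phosphatase Acp2 rose. Tpp1, which takes tripeptides off the ends of proteins, lay at 159, 229 and 301 CPM in normal kidneys and at 291, 660 and 753 CPM in tumors. The 9 tumors other than tumor 7 were above the highest normal kidney, and the log2 fold change of Tpp1 was 1.44 (SE 0.151, adjusted p = 1.09e-07). Grn, whose product is cut into granulins in the lysosome, lay at 135, 158 and 356 CPM in normal kidneys and at 401, 490 and 593 CPM in tumors. For Grn the groups did not overlap, tumor 7 was the highest tumor instead of the lowest, and the log2 fold change was 1.41 (SE 0.153, adjusted p = 1.81e-07). Acp2, the acid phosphatase, lay at 26.3, 38.9 and 43.8 CPM in normal kidneys and at 39.9, 54.8 and 58.2 CPM in tumors. Of the 10 tumors, 8 were above every normal kidney for Acp2, and the log2 fold change was 0.51 (SE 0.103, adjusted p = 3.17e-04).

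The membrane proteins rose in 6 of 6 cases, with a median log2 fold change of 0.90. Lamp1 (chr8:13159161-13175338, plus strand), the most abundant of the 35 genes per length, lay at 817, 991 and 1430 CPM in normal kidneys and at 1360, 2860 and 3330 CPM in tumors. Overlap came only from tumor 7 (1360 CPM) and normal kidney 9 (1430 CPM), and the log2 fold change was 1.4 (SE 0.148, 2.65-fold, adjusted p = 1.08e-07). Lamp2, a relative of Lamp1 that also takes part in autophagy, lay at 675, 720 and 847 CPM in normal kidneys and at 894, 1660 and 2170 CPM in tumors. The lowest tumors were numbers 7 and 9, no tumor overlapped the normal kidneys, and the log2 fold change was 1.13 (SE 0.139, adjusted p = 9.55e-07). Mcoln1, the calcium channel mucolipin, had a log2 fold change of 1.01, and Cln3, the membrane protein affected in juvenile Batten disease, of 0.60. Apobr, on the opposite strand to Cln3, had 21.8% of its counts and a log2 fold change of 2.57.

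Scarb2 and Cd63 passed the test by the smallest margin of the 30. Scarb2, the receptor that carries glucocerebrosidase to the lysosome, lay at 53.4, 68.9 and 228 CPM in normal kidneys and at 90.9, 153 and 303 CPM in tumors. Normal kidneys 5, 7 and 8 stood apart at 189, 228 and 182 CPM, while the other 7 were between 53.4 and 78.3 CPM, and the tumors with the same numbers were the 3 highest, at 263, 303 and 248 CPM. The log2 fold change was 0.79 (SE 0.311, adjusted p = 0.0419), and it was 1.53 (SE 0.232, adjusted p = 2.31e-05) with normal kidneys 5, 7 and 8 left out. The call was lost in 12 of the 20 fits that left out a single library (normal kidneys 1, 2, 3, 4, 6, 9 and 10 and tumors 5, 6, 7, 8 and 9, highest adjusted p = 0.0794). It was also lost with upper quartile factors (0.69), library totals (0.68) and no filter on low counts (0.80). Leaving out both tumor 7 and normal kidney 9 lost it as well (0.58). Adjusted p went up to 0.128 over these fits. A fit with the library number as a block, given at the end, kept the call. Npc1 shared the pattern, with 58.9, 60.1 and 50.1 CPM in normal kidneys 5, 7 and 8 against 10.5 to 28.8 CPM in the other 7. In the same 3 kidneys the summed markers of the proximal tubule were lower (2170, 1280 and 3270 CPM, against 5860 to 10500 CPM) and Havcr1, the kidney injury molecule, was higher (163, 1350 and 128 CPM, against 3.18 to 35.7 CPM). Havcr1 was chosen after its values were seen, and the part of these differences in the Scarb2 and Npc1 levels was not tested.

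Cd63, a tetraspanin of late endosomes and lysosomes, lay at 562, 682 and 1590 CPM in normal kidneys and at 826, 1170 and 1490 CPM in tumors. No tumor exceeded normal kidney 9, at 1590 CPM, and the 3 next highest normal kidneys were numbers 7, 8 and 5. The log2 fold change was 0.45 (SE 0.185, adjusted p = 0.0489). It did not pass with RLE size factors (0.42, adjusted p = 0.0677) or with upper quartile factors (0.34, adjusted p = 0.122). Nor did it pass without the filter on low counts (0.47, adjusted p = 0.0705) or with the library number as a block. The call was lost in 15 of 20 fits that left out a single library, those without normal kidneys 1, 2, 3, 4, 5, 6 or 10 or without tumors 1, 2, 3, 4, 5, 6, 8 or 10, with adjusted p up to 0.0957.

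The V-ATPase genes were the group with the smallest change. Of the 4, 1 rose, and the median log2 fold change was 0.25. Atp6ap1, an accessory subunit needed for assembly of the pump, lay at 146, 208 and 231 CPM in normal kidneys and at 270, 402 and 530 CPM in tumors. The groups were separate, and the log2 fold change was 1.02 (SE 0.117, adjusted p = 3.84e-07).

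The other 3 encode parts of the peripheral sector that splits ATP, and none was called. Atp6v1d lay at 64.2, 100 and 182 CPM in normal kidneys and at 67.4, 133 and 154 CPM in tumors, with a log2 fold change of 0.27 (SE 0.165, adjusted p = 0.18). Its range in normal kidneys was again set by kidney 9 at the top, and without that kidney the log2 fold change was 0.39 (adjusted p = 0.0195). Atp6v1h lay at 102, 129 and 138 CPM in normal kidneys and at 116, 146 and 179 CPM in tumors, with a log2 fold change of 0.20 (SE 0.0851, adjusted p = 0.0565). For Atp6v1h, 7 tumors exceeded every normal kidney, and the adjusted p fell under 0.05 when normal kidney 7, tumor 7 or tumor 8 was left out, with log2 fold changes of 0.22, 0.23 and 0.22. Atp6v1a had a log2 fold change of 0.23 (95% interval -0.12 to 0.58, adjusted p = 0.263).

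Normal kidney contains intercalated cells, which are rich in a V-ATPase of their own. The 5 markers of intercalated cells fell in tumors, from a summed 127 to 522 CPM in normal kidneys to 1.72 to 10.3 CPM. The 5 subunits listed as those of intercalated cells, of which Atp6v1b1 and Atp6v0d2 are also among the 5 markers, fell as well, by log2 fold changes from -0.97 for Atp6v0a4 to -8.00 for Atp6v1b1. Of 12 other subunits that most cells use, 9 rose and 0 fell, with a median log2 fold change of 0.84. They ranged among those called from 0.35 for Atp6v1b2 to 1.84 for Atp6v0a1, a subunit of the membrane sector. The part of the loss of intercalated cells in the levels of Atp6v1a, Atp6v1d and Atp6v1h was not tested.

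**Figure D3:**
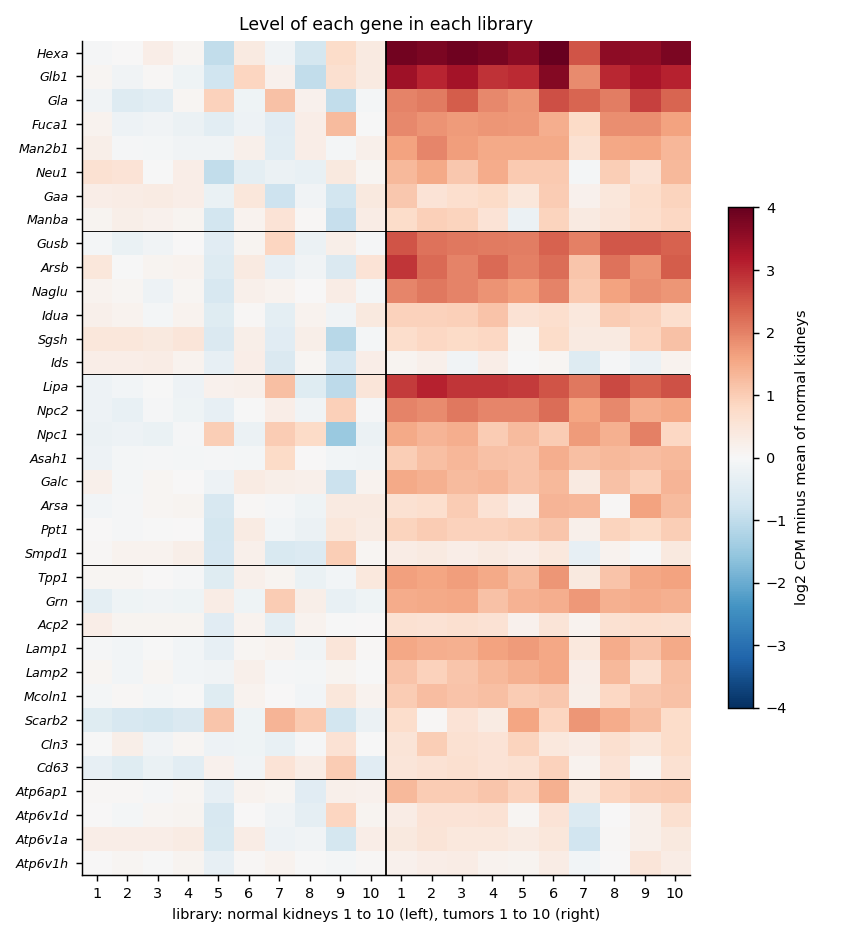
Log2 CPM of each gene (rows, ordered by role and fold change) in each of the 20 libraries, minus the mean of the 10 normal kidneys, on a color scale from -4 (blue) to 4 (red). Tumors are red across most rows, and tumor 7 is paler than the others in most rows. Normal kidneys 5, 7 and 8 stand above the other normal kidneys for Scarb2 and Npc1. Kidneys 5 and 7 do so for Gla, and kidneys 5, 7 and 9 stand below the others for Sgsh.

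In each library, the median over the 35 genes of the log2 level minus the mean of the normal kidneys lay between -0.41 and 0.14 in normal kidneys and between 0.42 and 1.30 in tumors. Tumor 7 gave the 0.42, and the other 9 tumors lay at 1.07 or above. Tumor 7 was the lowest tumor for 25 of the 35 genes, against 30% of all genes tested. It was the highest for 2 of them, Grn and Scarb2, against 25.4% of all genes. It exceeded every normal kidney in 18 of the 35 genes, and the other 9 tumors did so in 25 to 30. The same counts for single tumors were not made over all genes tested, so they cannot be read as particular to the 35 genes. Normal kidney 5 was the lowest of its group for 16 of the 35, against 16.8% of all genes. Normal kidney 9 was the lowest for 10 and the highest for 12, against 32.6% and 30.2% of all genes, and its TMM factor of 0.749 was the lowest of the 20. With tumor 7 and normal kidney 9 both left out, 32 of the 35 rose, 0 fell and the median log2 fold change was 1.11, and with normal kidneys 5, 7 and 8 left out these values were 30, 0 and 1.09.

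Macrophages are also rich in lysosomes, and their markers were higher in tumors. Of 11 macrophage markers, 8 rose and 0 fell, with a median log2 fold change of 1.04, and none was at 0 in the tumors. The largest change was in Cd68 (3.48), which is itself a lysosomal membrane protein. Their summed level was 220, 306 and 680 CPM (lowest, median, highest) in normal kidneys and 433, 582 and 2530 CPM in tumors. Normal kidney 9 gave the 680 CPM, and the next highest normal kidney had 377 CPM, below every tumor. Tumor 7, with the highest sum, had the lowest median level of the 35 genes among the tumors, together with the highest neutrophil (308 CPM) and fibroblast (2090 CPM) sums and the lowest proximal tubule sum (1000 CPM). The 7 tumors with sums of 433 to 662 CPM lay below normal kidney 9 on that sum. Their median levels of the 35 genes were 1.12 to 1.30, and that of normal kidney 9 was -0.02. The part of macrophages in the differences between tumors and normal kidneys was not tested.

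**Figure D4:**
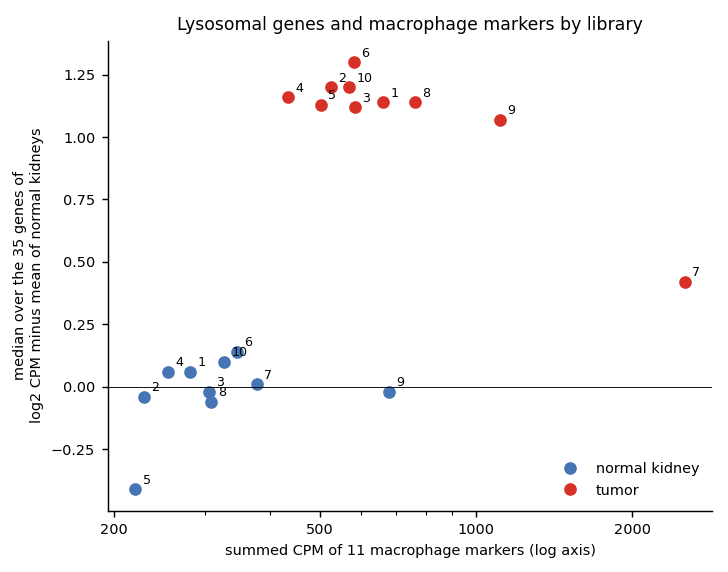
Median over the 35 genes of log2 CPM minus the mean of normal kidneys (vertical axis) against the summed CPM of 11 macrophage markers (horizontal log axis), with 1 numbered point per library. The 9 tumors other than tumor 7 lie at 1.07 to 1.30 over marker sums of 433 to 1110 CPM, tumor 7 lies at 0.42 with 2530 CPM, and normal kidney 9 lies at -0.02 with 680 CPM.

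Levels can be compared between genes only per length, as CPM per kb of exon. On that scale Lamp1 ranked highest in both groups, with medians of 370 in normal kidneys and 1070 in tumors. Lipa moved from rank 6 (70.8) to rank 2 (486), Hexa from rank 12 (30.5) to rank 3 (408) and Glb1 from rank 11 (30.8) to rank 5 (246). Atp6v1a moved the other way, from rank 3 (100) to rank 12 (110). The lowest median was that of Npc1 in normal kidneys (2.38) and that of Idua in tumors (4.75).

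**Figure D5:**
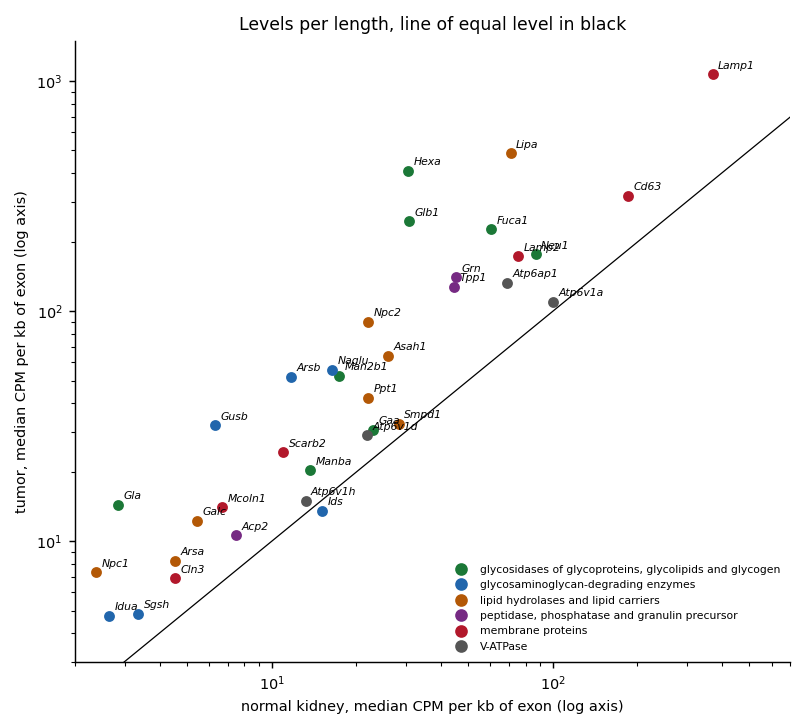
Median CPM per kb of exon in the 10 tumors (vertical) against that in the 10 normal kidneys (horizontal), both on log axes, with genes colored by role and the line of equal level in black. Ids lies just under the line (15.1 and 13.6), Atp6v1a and Smpd1 lie just over it, and Hexa (30.5 and 408) lies farthest from it.

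Other lysosomal genes, from a list of 33, rose in 23 cases, fell in 4 and were not called in 6, with a median log2 fold change of 0.91. The largest rises were those of Galns, a sulfatase of keratan sulfate, and Acp5, the tartrate-resistant acid phosphatase, at 2.59 each, and the largest fall was that of Laptm4b, a membrane protein, at -1.36.

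Of 6 genes that tag and sort the hydrolases, 4 rose and 1 fell. Igf2r, the large mannose 6-phosphate receptor, rose most (2.53, from a median of 138 to 825 CPM), and Sort1, sortilin, fell (-0.77, adjusted p = 0.0474). Of 8 genes made up of the factors that bind the promoter E-box, the folliculin complex and Gpnmb, 4 rose and 2 fell. Gpnmb, a glycoprotein of lysosomes and melanosomes, rose most, from a median of 2.14 to 599 CPM (log2 fold change 6.85, adjusted p = 2.06e-07). Among the factors themselves, Tfec (1.54) and Tfe3 (0.45) rose and Mitf (-1.12) and Tfeb (-0.39) fell, and mRNA level does not measure whether these factors were in the nucleus.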

How the data were processed

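Raw gene counts were deposited by the authors in 1 table of 54532 genes and 20 libraries, without normalization. RNA was extracted with Trizol from frozen tissue, and a company made the poly(A) libraries. The submitters' processing notes name the genome build mm10. The aligner, the counting tool and the use of strand are not given in the sources used here. The table had 0 rows without a gene and 0 unused columns of per-sample values.

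The 35 genes and the other lists were chosen with earlier results of these data known. Counts were scaled with TMM factors, and CPM is given on that scale. After edgeR's filter on low counts (count minimum of 10) the test covered 15354 genes. The 10 tumors were compared with the 10 normal kidneys in edgeR 4.0.16 (quasi-likelihood test, R 4.3.3), with no covariate and Benjamini-Hochberg adjustment over all genes tested, and genes were called at an adjusted p under 0.05. The method was tested on simulated data. P-values measure the spread between these samples, each from 1 of 10 tumors or normal kidneys. This main fit treated the libraries as independent, although tumors and normal kidneys came from the same mice.

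Full values are given in each role group for the 2 genes with the highest and the 1 with the lowest log2 fold change, and each other gene is named with its log2 fold change. Genes of other lists are named where theirs was the highest or lowest among those called. Values for other genes were added after seeing the data. Alternatives were other scalings, DESeq2 1.42.0, limma-voom (limma 3.58.1), no filter, a replicate block and libraries left out. The fits with the Xist class and without normal kidneys 5, 7 and 8 were chosen after seeing the data. Coordinates are those of the count table and were equal to GENCODE M21 in 34 of 35 genes. Exon lengths come from the count table.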

Additional observations from a re-analysis of the deposited data

Results flagged for a closer look

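In each group of 10 libraries the highest and the lowest value of each gene were set against the nearest other library by Dixon's ratio, at the 95% critical value. Chance flags about 1 in 20 groups, and 23 of 70 gene and group sets were flagged. Values are log2 CPM.

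Tumor 7 was far below the other tumors for Glb1 (8.36), Hexa (8.41), Man2b1 (7.81), Fuca1 (8.57), Naglu (6.43), Galc (6.58), Ppt1 (6.54), Tpp1 (8.19), Lamp1 (10.41), Mcoln1 (5.91), Atp6v1a (8.22) and Atp6v1d (6.08). For Hexa the next tumor was at 9.44 and for Glb1 at 9.36. Tumor 5 was far below the others for Manba (6.22, next 6.80).

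Normal kidney 9 was far above the other normal kidneys for Fuca1 (9.07), Npc2 (7.95) and Atp6v1d (7.51), and far below them for Galc (5.36) and Npc1 (3.41). Normal kidney 7 was far above the others for Gusb (5.76), Asah1 (7.30) and Grn (8.48). Normal kidney 5 was far below the others for Arsa (3.44) and Atp6v1h (6.67).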

How the results depend on the processing

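The count of genes higher in tumors was 30 and ranged from 27 (library totals) to 33 (limma-voom with quality weights) over the alternatives, and from 28 to 31 with single libraries left out. None of the 35 was called lower in any of them, and the median log2 fold change ranged from 0.89 to 1.11. One direction turned: Smpd1, not called, was at -0.06 without normal kidneys 5, 7 and 8. Calls of single genes were lost for Cd63 with RLE size factors (0.42), upper quartile factors (0.34), no filter (0.47) and the replicate block (0.53), for Scarb2 with upper quartile factors (0.69), library totals (0.68), no filter (0.80) and tumor 7 and normal kidney 9 left out (0.58), and for Manba (0.44) and Sgsh (0.47) with library totals. The cause was not tested. Calls were gained for Atp6v1h, Atp6v1d and Smpd1 under limma-voom, for Atp6v1h under DESeq2, and for these 3 with tumor 7 and normal kidney 9 left out. Leaving out single libraries changed the call of 4 genes (Cd63, Scarb2, Atp6v1h and Atp6v1d) and of none of the other 31.

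With a replicate block, 29 genes rose, 0 fell and the median was 1.03, and Scarb2 was at 0.93 (adjusted p = 2.2e-04). Deviations from the group means correlated between libraries of the same number at -0.14 to 0.38, over 0.1 in 9 of 10 numbers, and 5 normal kidneys and 8 tumors correlated best with their own number. Xist was high in 5 libraries of each group, with the same numbers in both (10 of 10 numbers matched). With that class as a covariate, 30 rose, 0 fell and the median was 1.02. The effect of depth was not tested, and the lowest count of a gene in any library was 80, for Gla. Opposite-strand overlap of Idua, Sgsh, Ppt1, Npc1 and Cln3 and same-strand overlap of Glb1 with Tmppe were not resolved.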
